A study of Mus musculus with 6 samples.

Results

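The 32 genes described here are interferon-stimulated genes and their transcription factors, taken by symbol from a table of 24167 genes counted in mouse liver metastases. All 32 symbols were found in the table, all passed the filter on low counts, and the lowest count of any of them in any library was 34. The oligoadenylate synthetases and the guanylate-binding proteins, other families that interferon induces, were not part of the list. The metastases grew from the 4T1 mouse line, a model of triple-negative breast cancer. Female BALB/c mice aged 6 to 8 weeks received 500000 cells by hydrodynamic tail-vein injection, and metastases were dissected from the liver on day 10. In the shSCR group (3 libraries) the cells carried a scrambled hairpin, and in the shZdhhc17 group (3 libraries) a hairpin against Zdhhc17, which encodes a palmitoyltransferase; both hairpins came in a lentiviral pLKO.1 vector and both lines were selected with puromycin. Only the injected cells carry a hairpin, while the dissected tissue also holds host liver and immune cells. The labels do not say whether the cells were clones or whether each library is a single mouse, so the p-values reflect library-to-library spread, which may be technical.

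Type I interferons bind a receptor made of Ifnar1 and Ifnar2, whose kinases phosphorylate Stat2 in the cell. Stat2 and Irf9 are parts of the factor ISGF3, which binds the interferon-stimulated response element in the promoters of many interferon-induced genes. Their products sense viral RNA, block translation or entry of viruses, and attach the ubiquitin-like protein Isg15 to other proteins. Interferon gamma, made by T cells and natural killer cells, acts at another promoter element, the gamma-activated site, and raises many of the same genes. In tumours these genes can be expressed by carcinoma, stromal and immune cells alike.

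Gene counts summed to between 15832837 and 19186615 per library. Zdhhc17 stood at 32.4 to 34.2 CPM (counts scaled to the TMM-normalized library size) in the shSCR and 25.9 to 27.8 CPM in the shZdhhc17 libraries (log2 fold change -0.33 ± 0.11 SE, edgeR adjusted p = 0.383), at the level of the whole tissue. Albumin (Alb), a hepatocyte gene, and Krt8, a keratin not limited to carcinoma cells, were present in each library, at 7831 to 25533 CPM and at 606 to 1212 CPM. shSCR replicate 3 stood apart, with a summed level of 5 hepatocyte markers of 14006 CPM against 26857 to 41907 CPM elsewhere.

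The sequences of the response element are shown for 5 members, Isg15, Ifit3, Ifit3b, Ifit1 and Ddx60. Values of Isg15, Ifit3 and Ifit3b did not overlap between the groups, as in 9.62% of all genes with shSCR higher. Ifit1 and Ddx60 hold as many matches as the Ifit3 genes, but their values overlapped. Each line gives the 200 bases before the gene's start in RefSeq, 5′ to 3′ on the gene's strand, from the reference strain's GRCm38.p6 build, with matches to the response element core in capitals. That core is GAAA, any 2 bases, then GAAA again, on either strand (so TTTC, any 2 bases, TTTC on the other). The stretches are chr4:156200819-156201018 (minus strand) for Isg15, chr19:34583329-34583528 (plus strand) for Ifit3, chr19:34607757-34607956 (plus strand) for Ifit3b, chr19:34640689-34640888 (plus strand) for Ifit1 and chr8:61927887-61928086 (plus strand) for Ddx60.
Isg15: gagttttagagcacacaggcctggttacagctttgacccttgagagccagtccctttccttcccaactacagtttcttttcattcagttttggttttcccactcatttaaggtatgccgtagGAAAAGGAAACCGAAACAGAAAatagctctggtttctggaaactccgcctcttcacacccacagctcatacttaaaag
Ifit3: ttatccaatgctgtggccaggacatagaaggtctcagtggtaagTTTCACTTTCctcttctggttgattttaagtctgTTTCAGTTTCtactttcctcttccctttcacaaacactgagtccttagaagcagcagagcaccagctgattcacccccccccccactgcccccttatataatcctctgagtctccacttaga
Ifit3b: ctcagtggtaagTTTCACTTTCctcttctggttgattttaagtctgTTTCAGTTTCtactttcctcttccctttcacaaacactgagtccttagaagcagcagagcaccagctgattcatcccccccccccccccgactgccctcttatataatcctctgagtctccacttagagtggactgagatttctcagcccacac
Ifit1: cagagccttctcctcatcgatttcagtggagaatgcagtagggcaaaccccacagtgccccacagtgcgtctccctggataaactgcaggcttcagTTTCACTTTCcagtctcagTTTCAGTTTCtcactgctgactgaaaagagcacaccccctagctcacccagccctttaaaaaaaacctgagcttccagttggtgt
Ddx60: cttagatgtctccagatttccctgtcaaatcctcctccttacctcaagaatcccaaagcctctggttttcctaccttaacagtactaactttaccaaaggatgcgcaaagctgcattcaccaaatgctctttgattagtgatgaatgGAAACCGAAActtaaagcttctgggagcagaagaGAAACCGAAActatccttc
Positions are counted back from the start. In Isg15 there were 3 overlapping matches, between bases -78 and -57 before the start. Ifit3 and Ifit3b held the same pair of matches, at -156 and -122 in Ifit3 and at -188 and -154 in Ifit3b. Among the members, 24 have a promoter in the RefSeq table, and 12 of these (50.0%) held the core on either strand within 250 bases before to 50 bases after the start. Over all genes of the table the share was 3.99% (1079 of 27025), and over all promoters of that length 3.44%. The gamma-activated site TTCNNNGAA, which reads the same on both strands and can overlap the core, was found in 5 of the 24 (20.8%) and in 9.55% of all genes. The log2 fold changes of the 12 members with the core had a median of -0.75, those of the 12 without it -0.65, and those of the 8 with no entry in the table -0.69. A match to these letters is a description of the window and not a measured binding site.

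Across the 32 genes, values were lower on average in shZdhhc17 metastases, but no gene passed the test. The median difference was smaller without shSCR replicate 3, as follows from its rank as the highest library for 31 of the 32. shSCR replicate 2 also lay above every shZdhhc17 library for 25 (27.6% of all genes). A negative log2 fold change was found for 31 of the 32, against 49.7% of the 15567 genes tested, and the median was -0.69 against 0.0017 over all genes. By edgeR's quasi-likelihood test 0 of the 32 passed an adjusted p under 0.05, as did 0% of all genes, and the members' adjusted p ran from 0.377 to 0.803. At an unadjusted p under 0.05 there were 7 members (Ifit3, Ifit3b, Isg15, Mx1, Cmpk2, Ifi44 and Xaf1), against 6.71% of all genes on the lower side. limma voom and DESeq2 called 0 members as well, where DESeq2 called 0.636% of the genes it gave an adjusted p as lower. The authors' deposited table gave a negative log2 fold change for 31 of the 32 and a q under 0.05 for none (0.439% of its genes, on the lower side). Its smallest q was 0.0892, for Mx1. That table is DESeq2 on the same counts, and its member values match the DESeq2 fit here, so it is not a separate result. Both called 106 genes lower, as shares of 24167 and 16658 genes.

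The spread inside the control group was wider than the difference between the groups. shSCR replicate 3 was the highest of the 6 libraries for 31 of the 32 members, against 28.5% of all genes. shZdhhc17 replicate 1 was the lowest for 29, against 16.6% of all genes. The ratio of the highest to the lowest library had a median of 2.67 within shSCR and 1.67 within shZdhhc17. Over the 14491 tested genes with at least 1 CPM on average, the medians were 1.37 and 1.30. The ratio within shSCR exceeded the fold between the groups for 31 members, and also for 12044 of those 14491 genes. shSCR replicate 3 lay above every shZdhhc17 library for 31 members (36.6% of all genes), shSCR replicate 2 for 25 (27.6%) and shSCR replicate 1 for 3 (24.4%). For 27 members shSCR replicate 1 lay inside the range of the shZdhhc17 libraries, against 7400 of the 14491 genes with at least 1 CPM on average. The mean of log2(CPM + 1) over the 32 genes was 4.97, 5.49 and 6.24 in shSCR replicates 1, 2 and 3, and 4.58, 5.11 and 5.26 in shZdhhc17 replicates 1, 2 and 3.

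**Figure D1:**
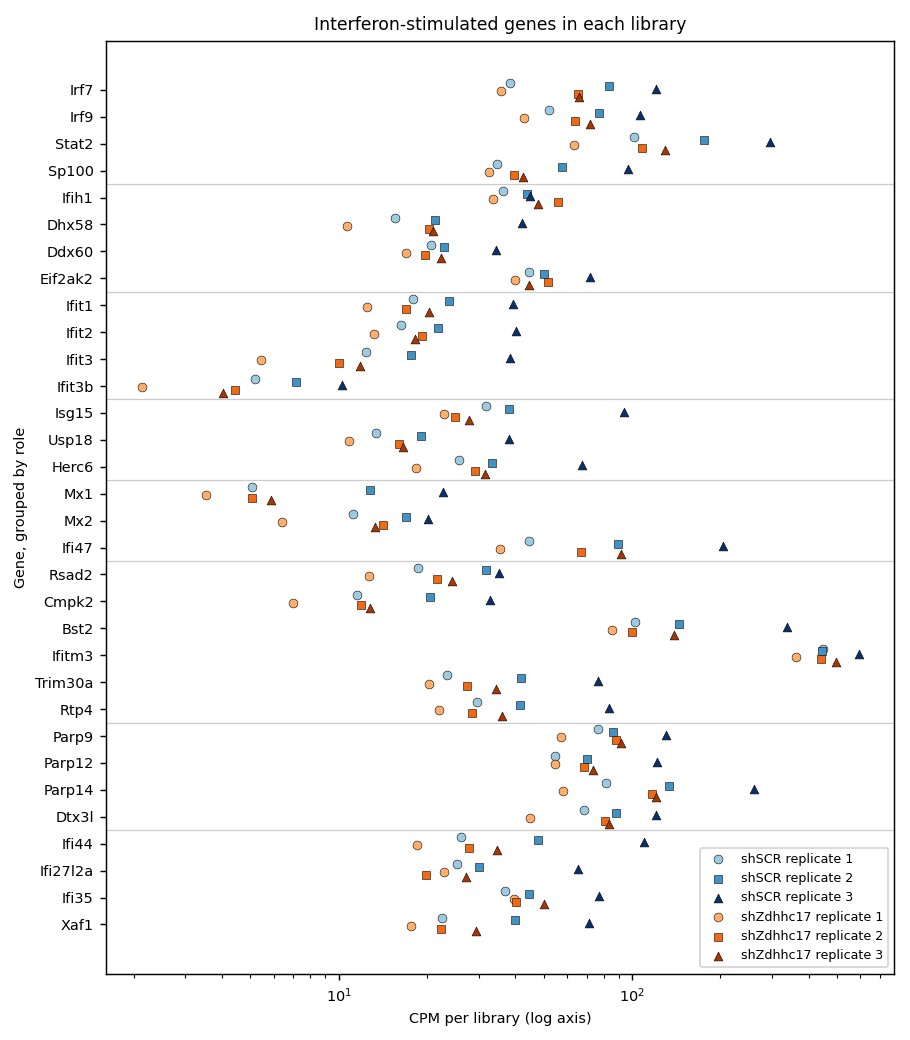
CPM of each of the 32 genes (rows, grouped by role and set apart by grey lines) in each of the 6 libraries (points, shifted slightly in height) on a log axis. shSCR replicate 3 (dark blue triangles) is the rightmost point in 31 rows, and shSCR replicate 1 (light blue circles) lies among the shZdhhc17 points in 27.

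Without shSCR replicate 3 the median over the members was -0.18, with 29 of 32 negative (47% of all genes) and 1 member, Isg15, at an unadjusted p under 0.05 (4.23% of all genes on the lower side). No member passed after adjustment there, where 0.00626% of all genes did. Log2 fold changes of -0.5 or lower were found for 23 members with all libraries (10.5% of all genes) and for 4, Mx1, Ifit3b, Ifit3 and Cmpk2, without shSCR replicate 3 (7.71% of all genes). The log2 fold changes of 29 members were more than 1.5 times smaller without that library. As it was the highest library for 31 members, a smaller change without it follows from its rank. The share over all genes was not computed for the count of 29. Leaving out shSCR replicate 1 moved the values the other way, giving a median of -0.96 with 23 members at an unadjusted p under 0.05 (11.1% of all genes on the lower side), and again 0 passed after adjustment. For the other 4 libraries, the lowest median on leaving one out was -0.81 (shZdhhc17 replicate 3) and the highest -0.47 (shZdhhc17 replicate 1).

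**Figure D2:**
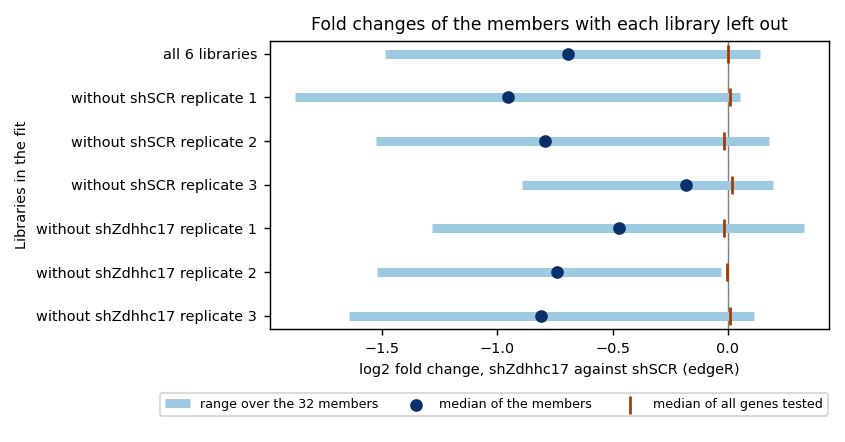
Log2 fold changes of shZdhhc17 against shSCR by edgeR (x axis) with all 6 libraries and with each left out (rows): bars span the 32 members, points are their median and ticks the median of all genes tested. The median of the members moves from -0.69 to -0.18 without shSCR replicate 3 and to -0.96 without shSCR replicate 1.

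Among the transcription factors, Stat2, a subunit of ISGF3, had the lowest log2 fold change. Stat2 (ENSMUSG00000040033.17) stood at 101, 176 and 296 CPM in shSCR replicates 1, 2 and 3 and at 63.5, 108 and 129 CPM in the shZdhhc17 replicates. The groups overlapped, through shSCR replicate 1, and the log2 fold change was -0.93 ± 0.41 (SE; edgeR adjusted p = 0.444). Irf9, the DNA-binding subunit of ISGF3, stood at 52.2, 77.0 and 106 CPM against 42.7, 64.0 and 72.0 CPM, with -0.40 ± 0.29. Irf7, which amplifies transcription of interferon alpha genes, stood at 38.4, 83.5 and 121 CPM against 35.9, 65.6 and 65.7 CPM, with -0.54 ± 0.41. Sp100, a component of PML nuclear bodies, stood at 34.6, 57.5 and 96.8 CPM against 32.4, 39.7 and 42.3 CPM, with -0.72 ± 0.34. In each of the 4, shSCR replicate 1 lay inside the range of the silenced libraries, and 0 of the 4 had an unadjusted p under 0.05.

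The IFIT genes encode proteins that bind viral RNA and stop its translation. Groups did not overlap for 3 of the 32 members, near the 9.62% of all genes with shSCR higher, and 2 of the 3 were IFIT genes. Ifit3 (ENSMUSG00000074896.4) stood at 12.4, 17.6 and 38.3 CPM in the shSCR and 5.41, 10.0 and 11.8 CPM in the shZdhhc17 replicates. Group means were 22.8 ± 13.7 and 9.08 ± 3.30 CPM (SD, n = 3 each). Ifit3b (ENSMUSG00000062488.10) stood at 5.18, 7.16 and 10.3 CPM against 2.14, 4.42 and 4.02 CPM. The log2 fold changes were -1.33 ± 0.46 for Ifit3 and -1.09 ± 0.36 for Ifit3b (SE; edgeR adjusted p = 0.387 and 0.377). These are close copies of each other, and how reads were shared between them is uncertain. Ifit1 stood at 17.9, 23.7 and 39.3 CPM against 12.5, 17.0 and 20.2 CPM (-0.71 ± 0.31). Ifit2 stood at 16.3, 21.7 and 40.2 CPM against 13.1, 19.3 and 18.1 CPM (-0.63 ± 0.34). In both, shSCR replicate 1 lay inside the range of the silenced libraries.

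In the Isg15 system the modifier itself had the lowest value. Isg15 (ENSMUSG00000035692.8), the ubiquitin-like protein, stood at 31.8, 38.0 and 93.9 CPM in the shSCR and at 22.8, 24.9 and 27.7 CPM in the shZdhhc17 replicates. Its groups did not overlap, and the silenced libraries lay close together (25.1 ± 2.44 against 54.6 ± 34.2 CPM; SD, n = 3 each). The log2 fold change was -1.12 ± 0.39 (SE; edgeR adjusted p = 0.390) and -0.48 ± 0.15 without shSCR replicate 3. Non-overlapping groups with shSCR higher were found for 3 of the 32 members in all, Isg15, Ifit3 and Ifit3b, against 9.62% of all genes. Usp18, which removes Isg15 from proteins and dampens receptor signalling, had -0.70 ± 0.38, and Herc6, the ligase that attaches Isg15 in mice, -0.68 ± 0.38. Of the enzymes that act before Herc6, the activating enzyme gene Uba7 had -0.82 ± 0.35, and the conjugating enzyme gene Ube2l6 had 0.069 ± 0.35, at 60.1, 68.8 and 125 CPM in the shSCR against 55.9, 96.1 and 114 CPM in the shZdhhc17 replicates.

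The GTPase genes gave the lowest log2 fold change of the 32 genes. Mx1 (ENSMUSG00000000386.18), an antiviral dynamin-like GTPase that in most laboratory strains, BALB/c among them, is inactivated by a deletion, stood at 5.07, 12.8 and 22.7 CPM in the shSCR and 3.52, 5.08 and 5.87 CPM in the shZdhhc17 replicates. shSCR replicate 1 lay among the silenced libraries, and the other controls lay well above them. Its log2 fold change was -1.49 ± 0.51 (SE; edgeR adjusted p = 0.382) and -0.89 ± 0.41 without shSCR replicate 3. Mx2 had -0.51 ± 0.34. Ifi47, an immunity-related GTPase that interferon gamma also induces, stood at 44.5, 89.8 and 204 CPM against 35.3, 66.7 and 91.5 CPM. Its log2 fold change of -0.81 ± 0.56 was -0.060 ± 0.42 without shSCR replicate 3.

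The sensors of viral RNA had log2 fold changes from -0.60 to 0.14, and their groups overlapped. Ifih1 (ENSMUSG00000026896.15), the long double-stranded RNA sensor MDA5, was the single member with a positive log2 fold change. It stood at 36.3, 43.7 and 44.8 CPM in the shSCR and 33.7, 56.1 and 47.8 CPM in the shZdhhc17 replicates (0.14 ± 0.20), and its sign turned with library totals alone (-0.0086) and without shZdhhc17 replicate 2 (-0.029). It was also the member with the narrowest control group, with a ratio of highest to lowest of 1.23. Dhx58, the regulatory helicase LGP2, stood at 15.5, 21.3 and 42.1 CPM against 10.7, 20.3 and 20.9 CPM (-0.60 ± 0.41). The helicase gene Ddx60 had -0.40 ± 0.22, and Eif2ak2, the kinase PKR that stops translation when it binds double-stranded RNA, -0.29 ± 0.20.

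Among the restriction factors and their neighbours, Cmpk2 had the lowest value. Cmpk2, a mitochondrial nucleotide kinase gene, lies next to Rsad2, which encodes viperin, an enzyme that turns a nucleotide into a chain terminator of viral RNA synthesis. Cmpk2 stood at 11.5, 20.4 and 32.6 CPM against 6.98, 11.9 and 12.8 CPM, with -1.02 ± 0.40 (SE; edgeR adjusted p = 0.408). Rsad2 stood at 18.6, 31.8 and 35.2 CPM against 12.7, 21.6 and 24.3 CPM, with -0.55 ± 0.31. In both genes only shSCR replicate 1 lay inside the range of the silenced libraries. Bst2, the tetherin that holds budding virus at the membrane and also a surface marker of plasmacytoid dendritic cells, stood at 102, 144 and 337 CPM against 85.5, 100 and 138 CPM (-0.85 ± 0.43). Without shSCR replicate 3 it had -0.19 ± 0.24. Trim30a had -0.79 ± 0.41 and Rtp4 -0.84 ± 0.38. Ifitm3, which blocks fusion of virus in endosomes, stood at 447, 445 and 592 CPM against 362, 439 and 495 CPM (-0.19 ± 0.20), with groups that overlapped.

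The PARP genes and Dtx3l had log2 fold changes from -0.69 to -0.30, with a median of -0.37. Parp14, a mono-ADP-ribosyltransferase gene, stood at 81.2, 134 and 260 CPM in the shSCR and 58.1, 117 and 121 CPM in the shZdhhc17 replicates (-0.69 ± 0.45). Parp9 and Dtx3l, whose proteins form a complex and whose genes are neighbours, had -0.30 ± 0.26 and -0.41 ± 0.29. Parp12 had -0.32 ± 0.29, and 0.076 ± 0.19 without shSCR replicate 3. None of the 4 had an unadjusted p under 0.05, and their groups overlapped.

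Of the remaining members, Ifi44 stood at 26.1, 47.8 and 110 CPM in the shSCR and 18.4, 27.8 and 34.8 CPM in the shZdhhc17 replicates. Its log2 fold change was -1.18 ± 0.50 (SE; edgeR adjusted p = 0.436). Xaf1, a gene for a partner of the apoptosis inhibitor XIAP, stood at 22.5, 40.0 and 71.0 CPM against 17.7, 22.3 and 29.3 CPM (-0.95 ± 0.40). Both overlapped between the groups through shSCR replicate 1. Ifi27l2a had -0.79 ± 0.36 and Ifi35 -0.29 ± 0.27, the latter 0.087 ± 0.17 without shSCR replicate 3.

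**Figure D3:**
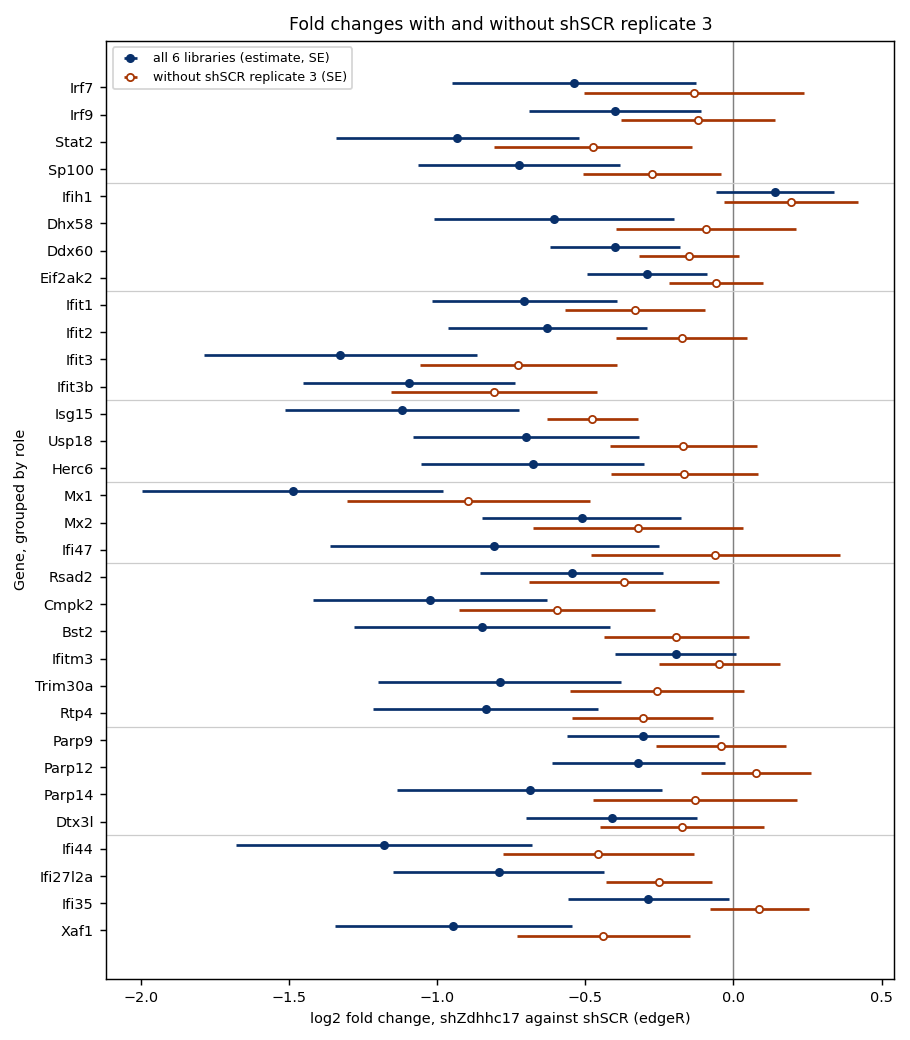
Log2 fold changes of shZdhhc17 against shSCR (edgeR; bars are SE) for the 32 genes, grouped by role, with all 6 libraries (filled) and without shSCR replicate 3 (open). The filled points run from -1.49 (Mx1) to 0.14 (Ifih1) and the open ones from -0.89 (Mx1) to 0.20 (Ifih1).

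Of the receptor genes, Ifnar1 and Ifnar2 had log2 fold changes near 0. Ifnar1 stood at 88.8, 92.8 and 90.2 CPM in the shSCR and 72.8, 88.0 and 87.1 CPM in the shZdhhc17 replicates (-0.13 ± 0.12), and Ifnar2 had -0.011 ± 0.14. The groups did not overlap for Ifnar1, as for 9.62% of all genes with shSCR higher. Jak2, a kinase of the interferon gamma receptor, stood at 138, 144 and 166 CPM against 85.5, 88.3 and 96.9 CPM (-0.73 ± 0.13; edgeR adjusted p = 0.307), with tight groups that did not overlap. The authors' deposited table gives Jak2 a q of 0.00344. Of 21 interferon genes listed, 1 was matched in the table, Ifng, and the other 20 were not analysed here. Ifng, the gene for interferon gamma, stood at 0, 0.575 and 3.24 CPM in shSCR replicates 1, 2 and 3 and at 0, 0.358 and 0.330 CPM in the shZdhhc17 replicates, too low to be tested. A count of 0 allows up to 0.164 CPM in shSCR replicate 1 and 0.189 CPM in shZdhhc17 replicate 1, for counting error alone.

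Among 16 tested genes of nucleic acid sensing and interferon induction, 13 had a negative log2 fold change (median -0.34). By edgeR, 2 of the 16 had an unadjusted p under 0.05 on the lower side (6.71% of all genes) and 1 on the higher side. Over all 15567 genes there were 1780 in either direction, 1045 of them lower. Aim2, a sensor of cytosolic DNA, stood at 8.18, 13.2 and 18.4 CPM in the shSCR and 7.23, 6.69 and 7.98 CPM in the shZdhhc17 replicates (-0.86 ± 0.29). Sting1, the adaptor behind the DNA sensor cGAS, stood at 45.0, 48.7 and 83.2 CPM against 32.3, 37.7 and 41.3 CPM (-0.67 ± 0.25). In both genes the groups did not overlap, as in 9.62% of all genes with shSCR higher. Tlr7, an endosomal sensor of single-stranded RNA, lay the other way, at 3.92, 5.44 and 4.91 CPM in the shSCR and 8.24, 5.85 and 7.25 CPM in the shZdhhc17 replicates (0.58 ± 0.23), again without overlap. The share of all genes without overlap in that direction was not counted. Tlr7 was singled out after its values were seen. Of the inhibitors of the pathway, 6 of 7 were negative (median -0.20), and Socs1 ranged from 5.67 to 116 CPM within shSCR. All 7 immunity-related GTPase genes, Ifi47 among them, were negative (median -0.81), none with an unadjusted p under 0.05. Among 40 other tested interferon-stimulated genes, 36 were negative (median -0.49), and 9, all negative, had an unadjusted p under 0.05 (6.71% of all genes on the lower side). Of these, Epsti1 (-0.60 ± 0.16) and Phf11d (-1.13 ± 0.34) had the smallest p, with an edgeR adjusted p of 0.315 and 0.350. No gene of the pathway lists passed the adjusted threshold by edgeR; in the authors' deposited table Jak2 did.

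Markers of T cells, natural killer cells and dendritic cells were, like the members, highest in shSCR replicates 2 and 3 and lowest in shZdhhc17 replicate 1. The summed level of 7 T cell markers was 10.0, 40.0 and 38.4 CPM in shSCR replicates 1, 2 and 3 and 7.86 to 15.3 CPM in the shZdhhc17 libraries. All 7 had a negative log2 fold change (median -1.33). No T cell marker was at 0 in any library, but values went down to 0.327 CPM, in shSCR replicate 1. For 6 natural killer markers the sum was 7.52, 26.4 and 38.8 CPM against 6.16 to 15.4 CPM, and 5 of 5 tested were negative. For 6 markers of conventional dendritic cells it was 43.3, 80.2 and 104.7 CPM against 25.03 to 41.3 CPM, with 6 of 6 negative. Of these 6, Itgax, named after its values were seen, has a q of 0.0256 in the authors' deposited table. For 5 markers of plasmacytoid dendritic cells, known as strong producers of interferon alpha, the sum was 2.56, 4.76 and 10.2 CPM against 1.26 to 3.82 CPM, with 4 of 4 tested negative. Among these, Siglech stood at 1.25, 1.52 and 2.96 CPM against 0.503, 1.79 and 1.38 CPM. Single markers of the natural killer and plasmacytoid lists went down to 0.055 and 0.060 CPM, where counting error is large. The 3 B cell markers did not share this order: they summed to 2.34, 5.60 and 2.73 CPM in the shSCR and 2.89, 6.15 and 6.40 CPM in the shZdhhc17 replicates, with 3 of 3 positive (median 0.43).

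Markers of stellate cells and fibroblasts (4 genes) were also highest in shSCR replicate 3, at 3682, 4310 and 6655 CPM in sum against 2886 to 3563 CPM, with 3 of 4 negative. Neutrophil markers lay the other way, at 299.97 to 579 CPM in sum in the silenced libraries against 68.4 to 224 CPM, with 6 of 6 positive. By edgeR 5 of the 6 had an unadjusted p under 0.05, all on the higher side, and 0 passed after adjustment. Over all 15567 genes there were 1780 in either direction, 1045 of them lower. The authors' deposited table has a q under 0.05 for 2, S100a9 (0.0152) and Mmp8 (0.0151), named after their values were seen. Kupffer cell markers were lowest in shSCR replicate 3 (97.3 CPM, against 225 and 321 CPM in the other controls and 253 to 475 CPM in the silenced libraries), as were hepatocyte markers. The 4 monocyte markers summed to 84.6 to 141 CPM in shSCR and 127 to 185 CPM in shZdhhc17, with 3 of 4 positive (median 0.40). The 6 macrophage markers summed to 702 to 904 CPM in shSCR and 757 to 901 CPM in shZdhhc17. By edgeR 2 monocyte markers and 1 macrophage marker had an unadjusted p under 0.05 on the higher side. On the lower side 3 T cell, 3 conventional dendritic, 2 fibroblast, 0 natural killer and 0 plasmacytoid markers did (6.71% of all genes). The 5 carcinoma markers summed to 1829 to 2752 CPM in shSCR and 1471 to 2666 CPM in shZdhhc17. Most of the carcinoma sum came from Krt8 and Krt18, keratins not limited to carcinoma cells. Of the 5 carcinoma markers, 4 were negative (median -0.51). By edgeR Itgb4 and Krt19, named after their values were seen, had an unadjusted p under 0.05 (6.71% of all genes on the lower side). In bulk tissue, fewer cells of a type and less RNA per cell cannot be told apart. The part of these cell types in the values of the interferon-stimulated genes was not tested.

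**Figure D4:**
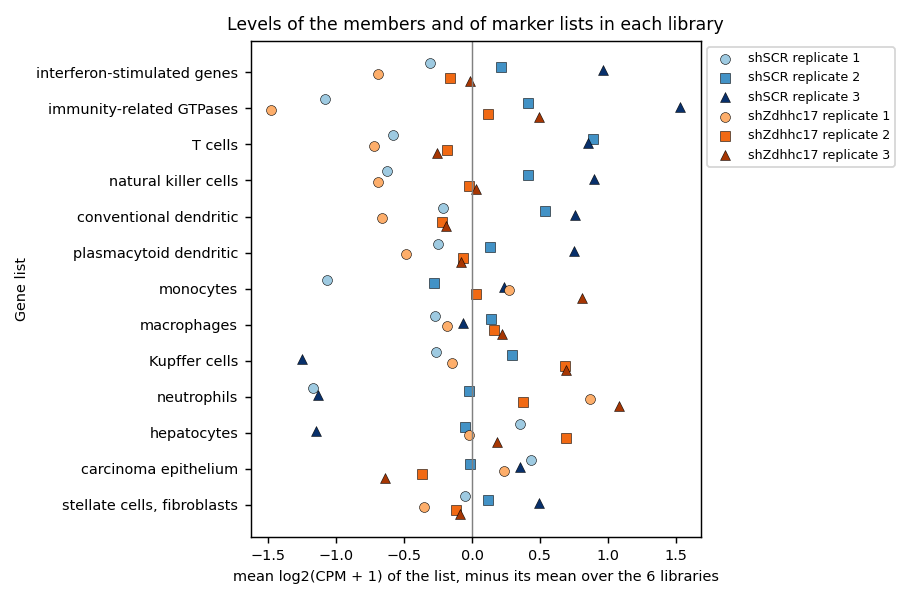
Mean log2(CPM + 1) of the interferon-stimulated genes and of 12 other gene lists (rows) in each library, as the difference from the mean over the 6 libraries. In shSCR replicate 3 the interferon-stimulated genes, the immunity-related GTPases and the natural killer, dendritic and fibroblast lists have their rightmost point, while the Kupffer cell and hepatocyte lists have their leftmost.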

How the data were processed

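RNA came from dissected liver metastases and went into a stranded polyA library kit, per the labels' protocols. Per the submitters' processing notes, the tools were DESeq2 1.34.0, HTSeq, STAR 2.6.1 and FastQC 0.11.8, on build GRCm39; no source used here gives the strand setting. The authors deposited raw counts per gene for 6 libraries, and a DESeq2 table of log2 fold changes with p-values and q-values and a ranking score, which was not used. Libraries were matched to groups by their titles and descriptions.

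Counts were tested with edgeR 4.0.16 (glmQLFit with robust estimation, glmQLFTest, two-sided; R 4.3.3), normalized by TMM; filterByExpr kept 15567 genes, over which p was adjusted by Benjamini-Hochberg with a threshold of 0.05. SE is the absolute log2 fold change over the root of F. With 4 residual degrees of freedom, common dispersion came to 0.0552. Levels are CPM on TMM library sizes. The code was tested on simulated counts. Replicates differed by far more than sampling noise (a chi-square of at least 13.6 per gene), so none was counted as a repeat. Alternatives were DESeq2 1.42.0, limma voom (limma 3.58.1), other normalizations and filters, a replicate block and leaving out each library.

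The members and gene lists were chosen with earlier results of these data known. All 32 members are named. The naming rule allowed, of each pathway list, the 2 genes with the smallest p and those tied to a member by role. Of each marker list it allowed the first 2 genes. Outside this rule, Tlr7, Itgax, S100a9, Mmp8, Itgb4 and Krt19 were named after their values were seen. Promoters are from RefSeq on GRCm38.p6, a build other than that of the counts, and serve only to show sequence. Some listed genes are not reported here.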

Additional observations from a re-analysis of the deposited data

How the results depend on the processing

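No member passed an adjusted p under 0.05 in any of the 13 other fits, and at least 29 of 32 were negative in each. At a threshold of 0.1 no member passed with edgeR on all libraries, while Mx1 did with DESeq2 (adjusted p = 0.0892). The number of genes passing over all genes was 0 with edgeR, 3 with no filter on low counts, 3 at an adjusted p under 0.1, 204 with DESeq2, and 0 to 1 with a library left out (1 without shSCR replicate 3). The signs that turned were those of Ifih1 with library totals alone (-0.0086) and, over fits with a library left out, of Ifih1 (-0.029 to 0.33), Parp12 (-0.54 to 0.076) and Ifi35 (-0.49 to 0.087). Library totals alone moved the median of all genes to -0.13 and that of the members to -0.87; of the genes at an unadjusted p under 0.05, 1544 of 1941 were then lower, against 1045 of 1780. With the replicate number as a block the members' median was -0.59, 22 of 32 had an unadjusted p under 0.05 (6.48% of all genes on the lower side) in place of 7, and 0 genes passed. Same-numbered libraries did not all deviate together, with correlations over 15567 genes of -0.059, 0.32 and -0.046 for replicates 1, 2 and 3. Libraries of unlike number had correlations from -0.40 to 0.30, so the numbers were not taken as pairs. With a library left out the median ran from -0.96 to -0.18. With log2(CPM + 0.25) the order of the libraries in the mean level of the members was unchanged. The response element core with a further C at its end was found in 11 of 24 members (0.944% of all genes). The shorter pattern GAANNGAA, with another spacing, was found in 12 of 24 (22.7% of all genes). It is not a looser form of the core, and the 12 are not the same 12 genes. At the lowest member count of 34, in Ifit3b, counting error adds to the spread between libraries; its share was not computed.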
